A study of Homo sapiens with 6 samples.

Results

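The genes described here are those of the human mitochondrial genome, taken as every row of the deposited count table whose chromosome is given as MT. They number 37 of 58735 rows: 13 protein-coding genes, 2 ribosomal RNA (rRNA) genes and 22 transfer RNA (tRNA) genes. The rule uses position alone and no measured value. The libraries come from MDA-MB-231, an established human triple-negative breast cancer line with the genotype given as WT, stained with the membrane dye PKH26 and grown for 12 days before sorting. Slow-cycling cells (SCC) were the brightest 1%, and rapid-cycling cells (RCC) were a dimmer fraction that the protocol calls moderate in dye and the sample characteristics call low. Both groups carried the same dye, growth period and sort, with 3 biological replicates each, 6 libraries in all. All groups come from the same line, so the libraries describe fractions of a culture grown with serum.

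The mitochondrial genome is a small circle that is copied into RNA from both strands as long precursors. Most rRNAs and mRNAs in these precursors are separated by tRNAs, and cutting out the tRNAs releases the mature RNAs on either side. The mRNAs encode membrane subunits of the respiratory chain: 7 subunits of complex I, which takes electrons from NADH, 1 of complex III, 3 of complex IV, which passes them to oxygen, and 2 of complex V, the ATP synthase. The rRNAs and tRNAs serve the translation of these mRNAs inside the organelle, while all other subunits of the chain are encoded in the nucleus and imported.

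The tRNA genes that bear on the results below are shown first, as examples chosen after their values were seen: the first 4 had lower scaled counts in every SCC library and the last 2 higher ones, and only MT-TC was called. Each is written 5′ to 3′ in the letters of the RNA's own strand, with the anticodon in capitals. Sequences are from GENCODE 29 transcripts on GRCh38.
MT-TG, tRNA for glycine, between MT-CO3 and MT-ND3, plus strand: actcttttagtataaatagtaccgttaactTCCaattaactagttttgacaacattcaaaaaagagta
MT-TR, tRNA for arginine, between MT-ND3 and MT-ND4L, plus strand: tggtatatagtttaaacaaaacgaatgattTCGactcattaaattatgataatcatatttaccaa
MT-TH, tRNA for histidine, after MT-ND4, plus strand: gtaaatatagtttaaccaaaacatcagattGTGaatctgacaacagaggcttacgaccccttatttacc
MT-TS2, a tRNA for serine, after MT-TH, plus strand: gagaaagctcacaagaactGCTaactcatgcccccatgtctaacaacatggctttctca
MT-TC, tRNA for cysteine, minus strand: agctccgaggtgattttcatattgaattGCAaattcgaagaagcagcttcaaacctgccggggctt
MT-TP, tRNA for proline, minus strand: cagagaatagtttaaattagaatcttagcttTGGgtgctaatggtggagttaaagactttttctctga

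The mRNA with the lowest fold change lies between the first pair of these tRNAs. Its gene, MT-ND3, occupies 346 bases (MT:10059-10404, plus strand), a length that is not a multiple of 3. The last 61 bases are shown because they end in a single T, in capitals, which the poly(A) tail completes to a stop codon before MT-TR begins at the next base.
MT-ND3, MT:10344-10404, plus strand: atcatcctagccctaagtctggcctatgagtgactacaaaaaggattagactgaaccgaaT

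Summed counts were 19498054 to 27831824 per SCC library and 17655855 to 22746267 per RCC library. Genes marking this line were at high levels in both groups, for example VIM at 795 ± 38.5 CPM (counts scaled to equal library size) in SCC against 776 ± 23.8 in RCC (SD over 3 libraries). All 5 markers listed as present in this line were tested, and 0 were called. Of 5 listed as low or absent (ESR1, PGR, ERBB2, CDH1 and EPCAM), 2 had enough counts to be tested, and 0 were called. ESR1 and CDH1 had at most 16 counts in any library, and PGR was at 0 in 5 of 6. Levels of ERBB2 and EPCAM are not given here, so absence is not shown for the list as a whole. Of 7 markers of leukocytes, endothelium and fibroblasts, 4 were too low to test and 0 were called. Of the 3 tested, 2 (PTPRC and COL1A1) were higher in SCC with p under 0.05 before adjustment, against 11.4% of all tested genes, and the median log2 fold change of the 3 was 0.50 against 0.00 over all genes. Among them PTPRC had 53 counts in SCC replicate 1 and 3 to 15 elsewhere, and COL1A1 was at 13.4 ± 2.38 CPM in SCC against 9.49 ± 1.35 in RCC. The part of such RNA in the results was not tested. SCC replicate 1 stood apart by base composition: the median log2 deviation from the mean of the 6 libraries was -0.23 for the GC-poorest decile of genes and 0.38 for the GC-richest, against -0.15 to 0.10 in the other libraries. The members' GC content ran from 23.1% (MT-TR) to 49.3% (MT-TS1).

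Mitochondrial RNA was a larger part of the SCC libraries than of the RCC libraries, by 0.67 percentage points. Of this, mRNA made up 0.62, rRNA 0.045 and tRNA 0.00094. Mitochondrial mRNAs took 4.46%, 4.21% and 4.19% of counts in SCC replicates 1 to 3 and 3.71%, 3.77% and 3.51% in RCC. The groups did not overlap, and the means were 4.29% ± 0.15 and 3.67% ± 0.14 (SD, n = 3), a ratio of 1.17. Mitochondrial rRNA took 0.25% ± 0.016 in SCC and 0.21% ± 0.039 in RCC, again without overlap, but only just: SCC replicate 3 was at 0.2406% and RCC replicate 3 at 0.2369%. Without RCC replicate 2 the rRNA difference was 0.023 percentage points. Mitochondrial tRNA took 0.0199% ± 0.0013 and 0.0190% ± 0.0007, and there the groups overlapped. Exact two-sided permutation p-values were 0.1 for mRNA, 0.1 for rRNA and 0.5 for tRNA, and 0.1 is the smallest that 3 against 3 libraries allow. In bulk RNA, more mitochondrial RNA per cell, more cells rich in it and less of other RNA cannot be told apart.

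By respiratory complex, the share of counts was higher in all 3 SCC libraries than in any RCC library for each of the 4 complexes with mitochondrial subunits, but for complex I this was lost when genes were weighted by length. Complex I mRNAs took 1.73% ± 0.092 in SCC and 1.57% ± 0.034 in RCC, a ratio of 1.097. MT-CYB, the only complex III member, took 0.25% ± 0.022 against 0.19% ± 0.0048, a ratio of 1.31. Complex IV mRNAs took 1.87% ± 0.034 against 1.54% ± 0.077, a ratio of 1.21, and complex V mRNAs 0.44% ± 0.0066 against 0.36% ± 0.023, a ratio of 1.24 (SD, n = 3 in each). The exact permutation p was 0.1 for each complex. As a share of summed FPKM (fragments scaled to gene length and library size), complex I was at 7.141% in SCC and 7.137% in RCC (exact permutation p 1.0). Complexes III, IV and V stayed at p 0.1 on that scale, and the share of rRNA, at 0.64% and 0.55%, had p 0.3. On counts, complex I had the smallest of the 4 ratios, and the part of single mRNAs in this was not tested.

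In the test of all genes, 31 of the 37 members passed the filter on low counts; the other 6 were tRNA genes. Nuclear copies of MT-ND2, MT-ATP6 and MT-CO1 also have counts, so reads of these genes may be split with them. Called here means a Benjamini-Hochberg adjusted p under 0.05 in edgeR's quasi-likelihood test over all 15881 tested genes. Of the 31 members, 6 rose in SCC, where 1.69% of all tested genes did, and 0 fell, where 0.378% did. The 6 were MT-ND1, MT-CYB, MT-CO1, MT-CO2, MT-ATP6 and the tRNA gene MT-TC. With p under 0.05 before adjustment there were 11 members above and 6 below, where 11.4% and 8.27% of all tested genes were. DESeq2 called 7 higher and 2 lower, against 2.93% and 0.997% of its tested genes. The 13 mRNAs had a median log2 fold change of 0.27 (SCC over RCC), against 0.00 over all tested genes. The count of 6 depended on single libraries: it was 10 without SCC replicate 1, 9 without SCC replicate 2 and 3 without SCC replicate 3, against 3.93%, 3.57% and 1.09% of all tested genes. It was 1 without RCC replicate 1, 2 or 3, MT-CO2 each time, against 0.608%, 0.602% and 0.63%. The calls lower were 3, 2 and 1 without SCC replicates 1, 2 and 3, against 2.1%, 1.59% and 0.116%, and 0 without RCC replicates 1, 2 or 3, against 0.0491%, 0.0851% and 0.0673%. With log2(FPKM + 1) or log2(FPKM + 0.1) the calls were MT-CO2 and MT-TC, and with log2(FPKM + 1) without a filter there were 0. For the other settings whose member counts are given further on, the share of all tested genes called higher was 2.65% without a filter, 2.2% with a replicate block, 3.29% with a GC offset, 3.99% with both, and 1.04%, 0.938% and 0.128% for log2(FPKM + 1), log2(FPKM + 0.1) and log2(FPKM + 1) without a filter. The share called lower was 0.838%, 0.667%, 1.54% and 2.81% for the first 4 of these and 0.434% with summed counts.

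**Figure D1:**
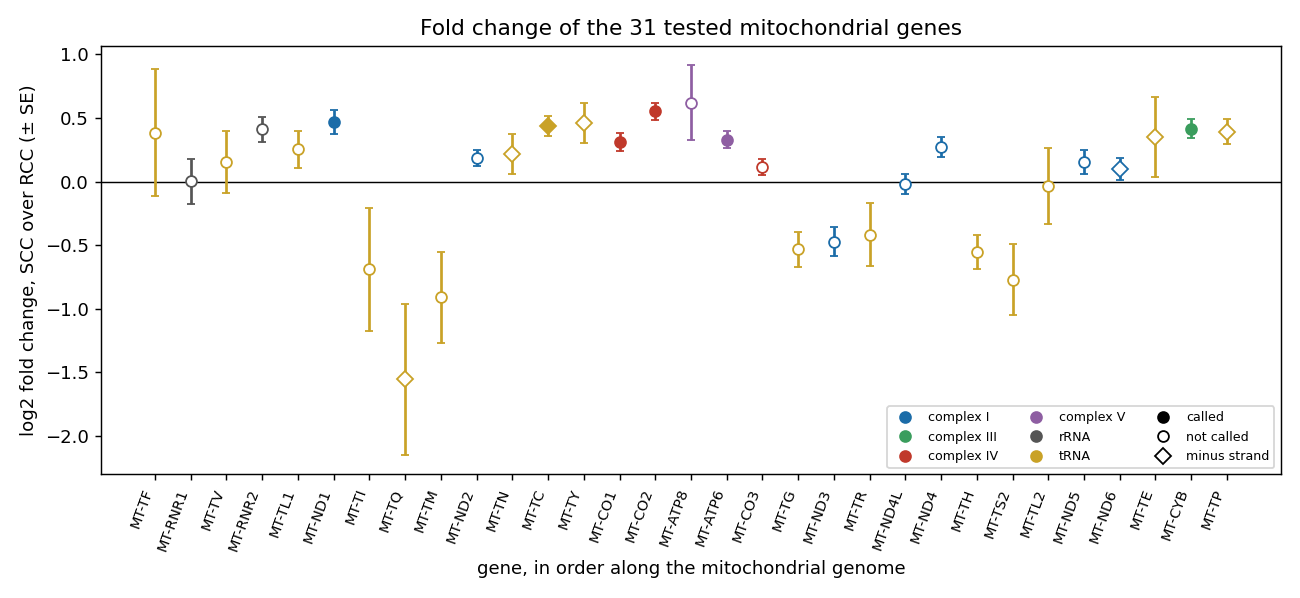
Log2 fold change (SCC over RCC, y axis) with its standard error for the 31 tested genes in their order along the mitochondrial genome (x axis); colours give the complex or RNA class, filled symbols the 6 called genes and diamonds minus-strand genes. Most mRNAs lie above 0. Below it lie MT-ND3, MT-ND4L (-0.02), 7 plus-strand tRNAs between mRNA genes, and the minus-strand tRNA MT-TQ, the lowest of all at -1.55.

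Complex IV holds the mRNA with the most stable rise. MT-CO2 (ENSG00000198712, MT:7586-8269, plus strand) encodes the subunit that receives electrons from cytochrome c. It was at 4052, 3699.8 and 3701 CPM in SCC replicates 1 to 3 against 2551, 2809.8 and 2453 in RCC. All SCC libraries were above all RCC libraries. The log2 fold change was 0.55 (standard error 0.070, edgeR adjusted p 0.0017), and MT-CO2 was called in 19 of 20 alternatives, the exception being log2(FPKM + 1) without a filter (0.669). MT-CO1 (ENSG00000198804, MT:5904-7445, plus strand), the catalytic core of the complex, was at 10748, 9665 and 9601 CPM in SCC against 8484, 8199 and 7443 in RCC. Its log2 fold change of 0.32 (standard error 0.071) was just past the threshold (edgeR adjusted p 0.0488). It was not past it without SCC replicate 3 (0.0956) or without RCC replicates 1, 2 or 3 (0.115, 0.156 and 0.195). It was also lost with upper-quartile scaling (0.0586), with 10 counts in every library (0.0668), with the length offset (0.0508) and in the 3 FPKM fits, in all 10 of 20 alternatives. MT-CO3 (ENSG00000198938, MT:9207-9990, plus strand), a further core subunit, was at 4861, 5168 and 5146 CPM in SCC against 4509, 5032 and 4475 in RCC. Its groups overlapped, and it was not called (log2 fold change 0.11, adjusted p 0.347). The count ratio of MT-CO2 to MT-CO3 was 0.834, 0.716 and 0.719 in SCC and 0.566, 0.558 and 0.548 in RCC, without overlap (exact permutation p 0.1, the smallest possible). That p was not adjusted for the other count ratios computed.

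Complex III is represented by MT-CYB (ENSG00000198727, MT:14747-15887, plus strand), which encodes cytochrome b. It was at 2886, 2415 and 2403 CPM in SCC against 1909, 1991 and 1869.7 in RCC, so the groups did not overlap. The log2 fold change was 0.42 (standard error 0.078, edgeR adjusted p 0.0218). Without RCC replicates 1, 2 or 3 the adjusted p was 0.124, 0.0804 and 0.133.

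The complex V genes overlap each other. MT-ATP8 (ENSG00000228253, MT:8366-8572, plus strand) and MT-ATP6 (ENSG00000198899, MT:8527-9207, plus strand) encode subunits of the membrane part of ATP synthase and share 46 bases in different reading frames. The shared stretch is shown with the start codon of MT-ATP6 in capitals, because reads within it cannot be given to either gene, and how the authors counted them is not given in the sources used here.
MT-ATP8 and MT-ATP6, MT:8527-8572, plus strand: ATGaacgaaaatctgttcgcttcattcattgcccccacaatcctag
MT-ATP6 was at 4503, 4305 and 4315 CPM in SCC against 3614, 3642 and 3196 in RCC, without overlap. Its log2 fold change was 0.33 (standard error 0.067, edgeR adjusted p 0.0328). The adjusted p was 0.0982 without SCC replicate 3 and 0.115, 0.0929 and 0.149 without RCC replicates 1, 2 and 3. MT-ATP8, with the fewest counts of the mRNA genes, was at 111, 44.2 and 50.3 CPM in SCC against 33.7, 51.0 and 49.8 in RCC. SCC replicate 1 alone was high. The log2 fold change of 0.62 missed the threshold (adjusted p 0.269), and without SCC replicate 1 it was 0.08. Per length, MT-ATP8 was at 328 ± 174 FPKM in SCC, where MT-ATP6 was at 6375 ± 121. The part of the shared bases and of the short length of MT-ATP8 in this difference was not tested. It is therefore not read as a difference in abundance.

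Complex I contained the member that rose and the member with the lowest fold change of all mRNAs. MT-ND1 (ENSG00000198888, MT:3307-4262, plus strand), a membrane subunit next to the quinone site, was at 2464, 1897 and 1909 CPM in SCC against 1497, 1529.98 and 1509.6 in RCC. SCC replicate 1 was the highest, and the other 2 SCC libraries also lay above all RCC libraries. The log2 fold change was 0.47 (standard error 0.094, edgeR adjusted p 0.0320), or 0.33 without SCC replicate 1 (4.5e-06). Without RCC replicates 1, 2 or 3 it was not called (0.155, 0.126 and 0.149).

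MT-ND3 (ENSG00000198840), a small subunit at the junction of the membrane and matrix arms, went the other way. It was at 1012, 1479 and 1300.4 CPM in SCC replicates 1 to 3 against 1625, 1891 and 1738 in RCC. All 3 SCC libraries were below all RCC libraries, as for 13.4% of all tested genes. The log2 fold change was -0.47 (standard error 0.12), and the edgeR adjusted p of 0.0717 missed the threshold. MT-ND3 was called lower in 7 of 20 alternatives and had a log2 fold change from -0.61 to -0.33 over the 20. It was called without SCC replicate 1 (-0.33, adjusted p 0.000325), without SCC replicate 2 (-0.61, 0.0084), with DESeq2 (-0.48, 0.0024) and with an offset for GC content (-0.38, 0.0072). With an offset for gene length it was -0.35 (0.133). The decile of shortest genes among all tested had a median log2 fold change of -0.08, and 5 nuclear protein-coding genes of 372 to 396 bases had a median of -0.40. The part of length in the value of MT-ND3 (346 bases) was not tested beyond the offset. Genes in the GC decile nearest to MT-ND3 (median 39.7%, MT-ND3 40.2%) had a median of -0.10.

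The remaining complex I mRNAs were not called. MT-ND2 was at 5124 ± 287 CPM in SCC against 4504 ± 242 in RCC, and MT-ND4 at 5187 ± 600.2 and 4294 ± 165 (SD, n = 3). In both the groups did not overlap, which held with SCC higher for 14.4% of all tested genes. Their log2 fold changes were 0.19 and 0.27 (edgeR adjusted p 0.169 and 0.114). MT-ND4 was called in 5 of 20 alternatives, among them without SCC replicate 1 (0.17, adjusted p 0.0171) and without SCC replicate 2 (0.31, 0.0488). MT-ND5 (0.15, adjusted p 0.376) overlapped between groups. So did MT-ND4L (-0.02, 0.909), which shares 7 bases with MT-ND4 and whose sign changed in 5 of 20 alternatives. MT-ND6, the only mRNA gene on the minus strand, was at 631, 510 and 537 CPM in SCC against 538, 487 and 542 in RCC, with a log2 fold change of 0.10 (0.526). The library kit named in the labels is not one that marks strand, and the counting is not stated to use it, so reads from MT-ND6 and from RNA copied off the opposite strand there cannot be told apart.

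**Figure D2:**
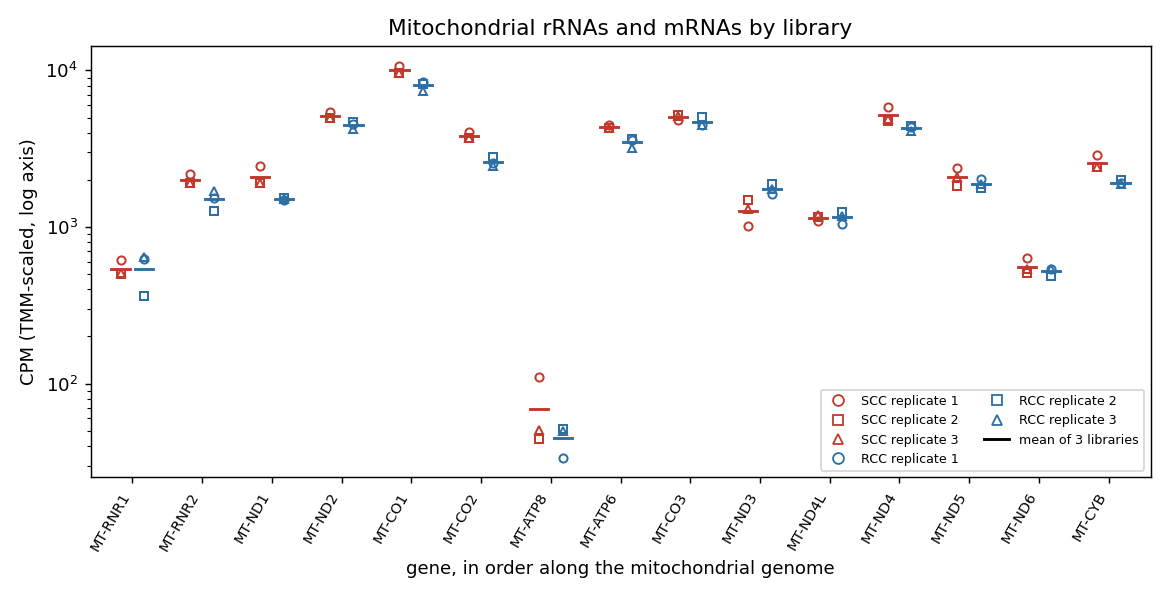
CPM on a log axis (y) of the 2 rRNAs and 13 mRNAs in genome order (x), with 1 symbol per library and a bar at each group's mean. SCC lies above RCC without overlap for MT-RNR2, MT-ND1, MT-ND2, MT-CO1, MT-CO2, MT-ATP6, MT-ND4 and MT-CYB and below it for MT-ND3. SCC replicate 1 is alone at 111 CPM for MT-ATP8.

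The make-up of the mRNA pool was compared by expressing each mRNA as a percentage of the counts of all 13. For 3 mRNAs the share was higher in every SCC library than in any RCC library (MT-ND1, MT-CYB and MT-CO2), for 3 it was lower (MT-ND2, MT-ND3 and MT-ND4L), and for 7 the groups overlapped. MT-CO2 made up 8.79%, 8.82% and 8.80% of the pool in SCC and 6.95%, 7.43% and 7.07% in RCC. The SCC libraries differed from each other by far less than from RCC. MT-ND3 made up 2.20%, 3.53% and 3.09% in SCC and 4.43%, 5.002% and 5.01% in RCC, which was the largest proportional difference of the 13 (ratio 0.61). MT-ND4L made up 2.65% ± 0.25 against 3.20% ± 0.30, and MT-ND2 11.8% ± 0.082 against 12.4% ± 0.13 (SD, n = 3). The exact permutation p was 0.1 for each of these 6, and 0.217 after adjustment over the 13, so none can pass a threshold of 0.05 in this design. With FPKM in place of counts, MT-ND2 (a difference of -0.072 percentage points, p 0.6) and MT-ND4L (-1.27, p 0.2) no longer separated the groups, while MT-ND1, MT-CYB, MT-CO2 and MT-ND3 kept their direction with p 0.1. The difference for MT-ND1 was 0.64 percentage points, and 0.37 without SCC replicate 1. Shares within a pool are bound to each other: a higher share of some mRNAs lowers that of the rest.

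**Figure D3:**
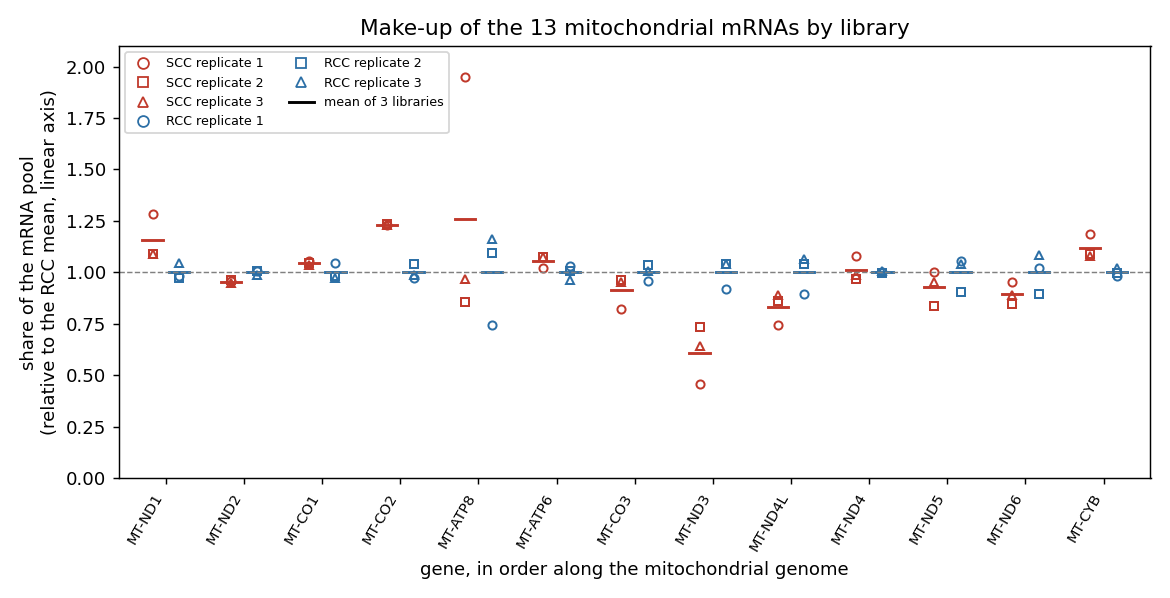
Share of each mRNA within the counts of the 13 mitochondrial mRNAs, divided by its RCC mean (y, linear axis), for each library, with genes in genome order (x). The 3 SCC libraries coincide for MT-CO2 above all RCC libraries, and all 3 lie below RCC for MT-ND3, with SCC replicate 1 the lowest.

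Levels compared per length differed widely between members. In RCC, MT-CO3 had the highest mean at 5943 ± 434 FPKM, followed by MT-CO1 (5199 ± 347), MT-ATP6 (5101 ± 376) and MT-ND3 (5048 ± 417). These last 3 did not differ beyond their spread. In SCC, MT-CO1 (6438 ± 370), MT-CO3 (6405 ± 259) and MT-ATP6 (6375 ± 121) led and lay within each other's spread, while MT-ND3 was at 3628 ± 695, below MT-CO2 (5539 ± 257), MT-ND2 (4879 ± 240) and MT-ND4L (3835 ± 197) (SD, n = 3 in each). MT-ND3 did not differ beyond its spread from MT-ND4L or from MT-ND4 (3735 ± 406) in SCC. By mean FPKM it stood behind 3 mRNAs in RCC and behind 7 in SCC, while the test of its own change missed the threshold. Across the 13 mRNAs, which share libraries and precursors, the log2 fold change had a Spearman correlation of 0.11 with length, 0.29 with GC content and -0.43 with position from the start of the genome.

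The rRNAs make up the mitochondrial ribosome, MT-RNR1 the small and MT-RNR2 the large subunit. MT-RNR2 (ENSG00000210082, MT:1671-3229, plus strand) was at 2165, 1911 and 1904 CPM in SCC against 1542, 1258 and 1699.8 in RCC. The groups did not overlap, and RCC replicate 2 was the lowest. The log2 fold change of 0.41 (standard error 0.10) missed the threshold (edgeR adjusted p 0.0694). MT-RNR2 was called in 7 of 20 alternatives, among them without SCC replicate 1 (0.35, adjusted p 0.0021) and without SCC replicate 2 (0.43, 0.0449). It was not called without SCC replicate 3 (0.117) or without RCC replicate 1, 2 or 3. MT-RNR1 (ENSG00000211459, MT:648-1601, plus strand) was at 617, 499.7 and 511 CPM in SCC against 622, 363 and 640 in RCC, where only replicate 2 was low. Its log2 fold change was 0.00 (adjusted p 0.995), and -0.22 without RCC replicate 2 (0.388). The count ratio of MT-RNR2 to MT-RNR1 was 3.51, 3.82 and 3.73 in SCC and 2.48, 3.46 and 2.66 in RCC, just without overlap. The ratio of all rRNA to all mRNA counts overlapped, at 0.058 ± 0.0017 in SCC and 0.056 ± 0.012 in RCC (exact permutation p 0.9). Whether libraries were made from poly(A) RNA is not given in the sources used here, and such a selection would lower rRNA and tRNA.

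The tRNAs, which carry amino acids to the mitochondrial ribosome, gave few counts, and 16 of 22 were tested. The 6 untested tRNA genes (MT-TW, MT-TA, MT-TS1, MT-TD, MT-TK and MT-TT) had 0 to 17 counts in any library. Of the 16, only MT-TC (ENSG00000210140, MT:5761-5826, minus strand) was called. It was at 57.1, 61.7 and 61.3 CPM in SCC against 42.3, 44.8 and 45.9 in RCC. Its log2 fold change was 0.44 (standard error 0.076, edgeR adjusted p 0.0135). Without SCC replicate 3 (0.0844) or RCC replicates 1, 2 or 3 (0.145, 0.0979 and 0.083) it was not called. MT-TC and its neighbours MT-TN and MT-TY lie by the origin of light-strand replication, and 31 bases without a gene separate MT-TC from MT-TN. MT-TN (log2 fold change 0.22, adjusted p 0.457) and MT-TY (0.46, 0.153) overlapped between groups. MT-TP, on the minus strand at the end of the genes, was at 23.4, 20.8 and 21.1 CPM in SCC against 15.4, 17.3 and 17.2 in RCC, and was not called (0.39, 0.0751). It was called higher in 5 of 20 alternatives: with the GC offset (0.60, 0.0092), that offset with a replicate block (0.58, 0.0017), the length offset (0.63, 0.0230), no filter (0.40, 0.0342) and without SCC replicate 1 (0.34, 0.0401).

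The tRNA genes next to MT-ND3 and after MT-ND4 had lower values in SCC. MT-TG (MT:9991-10058) was at 8.27, 6.95 and 9.77 CPM in SCC against 12.3, 11.9 and 12.03 in RCC. MT-TH (MT:12138-12206) was at 29.5, 23.7 and 35.7 CPM in SCC against 39.7, 47.3 and 43.7 in RCC. MT-TS2 (MT:12207-12265), with 22 to 69 counts per library, was at 1.34, 1.12 and 2.18 CPM in SCC against 2.999, 2.44 and 2.46 in RCC. In these 3 genes every SCC library was below every RCC library. Of the 16 tested tRNA genes, 6 separated this way and 3 the other way, where 13.4% and 14.4% of all tested genes did. The log2 fold changes were -0.53 for MT-TG, -0.55 for MT-TH and -0.77 for MT-TS2, with edgeR adjusted p of 0.0788, 0.0624 and 0.172, so none was called. MT-TH was called lower without SCC replicate 1, 2 or 3 (adjusted p 0.0023, 0.0471 and 0.0189), and MT-TG without SCC replicate 1 (0.0222). Without RCC replicate 1, 2 or 3 neither was called. Over the 20 alternatives, MT-TH was called in 8 and MT-TG in 2. With the GC offset MT-TG was at -0.23 and MT-TH at -0.39, and with the length offset at -0.28 and -0.31. MT-TG is 26.5% GC and MT-TH 36.2%.

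MT-TR (MT:10405-10469), at 2.30, 2.35 and 2.09 CPM in SCC against 4.04, 2.39 and 2.52 in RCC, barely separated (log2 fold change -0.42, adjusted p 0.362). Without RCC replicate 1 it was -0.14. Fewer counts lay behind MT-TQ and MT-TM, with 1 to 27 per library. In both, every SCC library was below every RCC library. MT-TM was at 0.61 ± 0.18 CPM in SCC against 1.14 ± 0.15 in RCC, and MT-TQ at 0.22 ± 0.18 and 0.70 ± 0.32 (SD, n = 3), with log2 fold changes of -0.91 and -1.55 (adjusted p 0.200 and 0.195). The remaining tested tRNA genes, MT-TF, MT-TV, MT-TL1, MT-TI, MT-TL2 and MT-TE, had adjusted p of 0.342 or above, and of these only MT-TL1, next to MT-RNR2, did not overlap between groups. A read that covers a tRNA and its neighbour belongs to both genes, and the treatment of such reads is not given in the sources used here. The tRNA counts may therefore stem from mature tRNA, precursors or RNA of the other strand, which cannot be told apart.

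**Figure D4:**
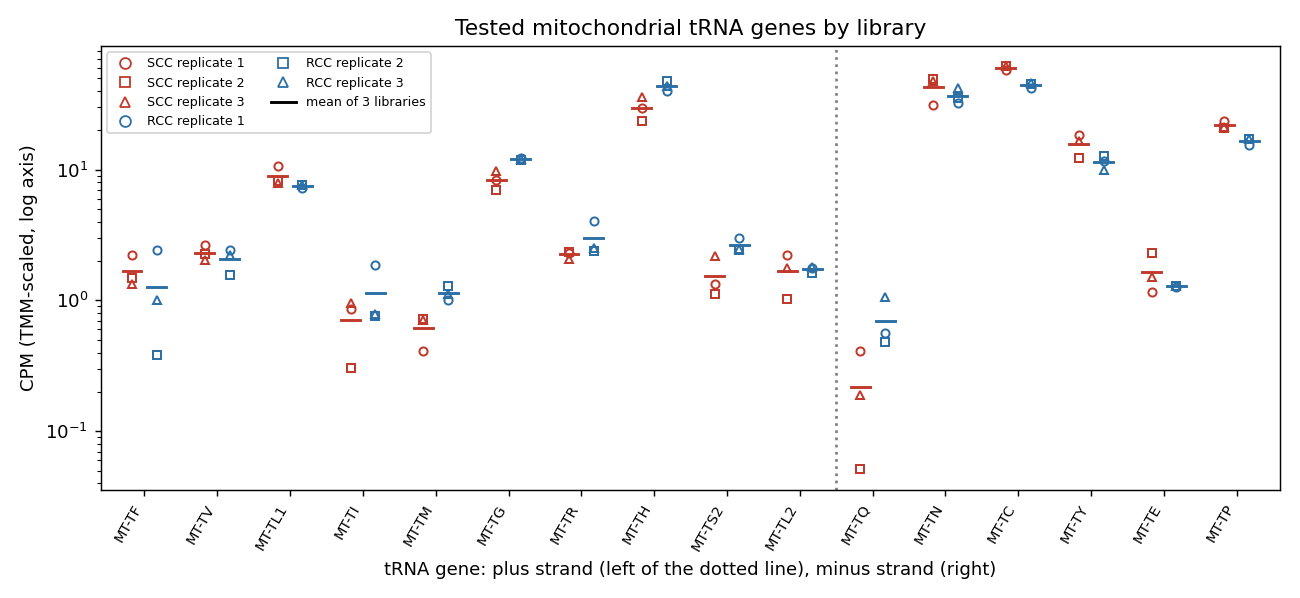
CPM on a log axis (y) of the 16 tested tRNA genes (x), plus-strand genes on the left and minus-strand genes on the right, with 1 symbol per library and a bar at each group's mean. MT-TM, MT-TG, MT-TR, MT-TH, MT-TS2 and MT-TQ are lower in every SCC library, and MT-TL1, MT-TC and MT-TP higher in every SCC library.

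Nuclear genes that serve mitochondrial gene expression gave 0 calls in either direction by edgeR. Of 88 genes in 5 lists (transcription and nucleoid, RNA processing and stability, translation factors, aminoacyl-tRNA synthetases and biogenesis regulators), 3 lay above and 13 below with p under 0.05 before adjustment, where 11.4% and 8.27% of all tested genes did, and DESeq2 also called 0. Without SCC replicate 1, 1 was called higher and 3 lower, against 3.93% and 2.1% of all tested genes, and without SCC replicate 2 again 1 and 3, against 3.57% and 1.59%. Without a filter 3 were higher and 4 lower, against 2.65% and 0.838%. With the GC offset 3 were lower, against 1.54%, with the replicate block 1 was lower, against 0.667%, and with both 1 was higher and 6 lower, against 3.99% and 2.81%. Their median log2 fold change was -0.11. The genes with the smallest p in each list were POLG2, an accessory subunit of the mitochondrial DNA polymerase (-0.35, adjusted p 0.0853), FASTKD3, of a family of mitochondrial RNA-binding proteins (-0.42, 0.0786), MTIF2, an initiation factor (-0.27, 0.144), MARS2, the methionyl-tRNA synthetase (-0.21, 0.262), and PPRC1, a coactivator of biogenesis genes (0.27, 0.124). TFAM, which packages the genome and starts its transcription, was at 202 ± 22.3 CPM in SCC against 230 ± 7.80 in RCC (-0.19, 0.241); it was chosen after its values were seen.

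Nuclear-encoded subunits of the same chain were mostly at lower values in SCC. Of 78 subunits, 0 rose and 2 fell, where 0.378% of tested genes fell. NDUFA11 and NDUFB1, accessory subunits of complex I, had log2 fold changes of -0.57 and -0.53 (edgeR adjusted p 0.0455 and 0.0494). Before adjustment, 32 had p under 0.05 below RCC and 0 above it, against 8.27% and 11.4% of all tested genes, and DESeq2 called 4 lower. Median log2 fold changes were -0.15 for 37 complex I subunits, -0.11 for 4 of complex II, -0.21 for 9 of complex III, -0.26 for 11 of complex IV and -0.19 for 17 of complex V. The members with the smallest p outside complex I were SDHD (-0.25, adjusted p 0.283), UQCR11 (-0.37, 0.142), COX7A2 (-0.28, 0.162) and ATP5ME (-0.77, 0.0775). The median over the 78 was -0.20, and -0.10 without SCC replicate 1. Without that library 11 were called lower and without SCC replicate 2 12 were, while without SCC replicate 3 or RCC replicate 1, 2 or 3 the count was 0. It was also 0 with 10 counts in every library, against 0.349% of all tested genes called lower. In the 3 FPKM fits it was 0 as well. There the shares were 0.288% for log2(FPKM + 1), 0.272% for log2(FPKM + 0.1) and 0.00266% for log2(FPKM + 1) without a filter. Without a filter 16 were lower and 1 higher, with the replicate block 4 were lower, with the GC offset 8, and with both 30, against the shares of all tested genes given above. The difference between the nuclear and the mitochondrial subunits was not tested.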

How the data were processed

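For each of the 6 libraries the authors deposited read counts, in whole numbers, and FPKM. Per the submitters' processing notes, HISAT2 2.0.5 and featureCounts 1.5.0-p3 were used; genome build, strand setting and read filters are not given in the sources used here. All 58735 rows match GENCODE 29 (GRCh38) in ID and position, and 27 gene names turned into dates were restored. Each deposited FPKM equals the count over gene length and a constant per library of 0.984 to 1.02 times the summed count. Counts were fitted with edgeR 4.0.16 in R 4.3.3 (filterByExpr at a minimum count of 10, TMM scaling, glmQLFit on group, two-sided quasi-likelihood F test, Benjamini-Hochberg over all tested genes). This fit was run on simulated counts with changes larger than those of the called members. That check does not cover changes of their size or calls among unchanged genes. CPM use TMM-scaled totals, the standard error is the log2 fold change over the square root of F, and shares were compared by exact two-sided permutation. The p-values set differences between groups against the spread between 3 libraries a group. In edgeR that spread is estimated with information from all tested genes.

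Alternatives were DESeq2 1.42.0, other scalings and filters, limma 3.58.1 on log2 of FPKM plus 1 or 0.1, a replicate block, each library left out, and offsets (lowess, per library) for GC content of the longest transcript and for gene length, which were chosen after seeing the data. Members and lists were chosen with earlier results of these data known. All rRNAs and mRNAs are named, tRNAs where tested, and of nuclear lists the called genes or the gene with the smallest p.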

Additional observations from a re-analysis of the deposited data

How the results depend on the processing

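Against 6 members called higher and 0 lower, a fit without the filter gave 11 and 3, and DESeq2 gave 2 lower. Summed counts alone gave 1 lower. The GC offset (an alternative that, like the length offset, was chosen after seeing the data) gave 10 and 1. With log2(FPKM + 1), log2(FPKM + 0.1) and log2(FPKM + 1) without a filter, 2, 2 and 0 were higher. The other scalings, a minimum of 10 counts in every library and the length offset left these counts within 1.5 times. The labels do not say that the replicate numbers pair the libraries. Same-numbered libraries had correlations of deviations of -0.01, 0.02 and -0.08, and libraries of different number -0.086 to 0.086. These values cannot decide on pairing, since the deviations were taken within groups of 3 libraries. With the replicate block, 7 members were higher and 2 lower (MT-ND3 and MT-TH), and with the block and the GC offset together 13 and 2. Leaving out each library gave 1 to 10 higher and 0 to 3 lower. Why the counts differ was not tested; the last fits have fewer libraries.

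With protein-coding and mitochondrial genes as denominator, with FPKM and without each library, shares by class and complex did not change sign, but with FPKM the complex I difference was 0.0042 percentage points (exact permutation p 1.0) and that of rRNA had p 0.3. The ratio of rRNA to mRNA reversed without RCC replicate 2 (a difference of SCC minus RCC of -0.0048, with up to 0.0075 without RCC replicate 3). Without SCC replicate 1, the share within the mRNA pool reversed for MT-ND4 (-0.27 percentage points, with up to 0.40 without SCC replicate 2) and MT-ATP8 (-0.011, with up to 0.057). Log2 fold changes near 0 changed sign. MT-RNR1 was at -0.0034 with DESeq2, -0.0033 with RLE, -0.017 with upper-quartile scaling, -0.028 with summed counts, -9.8e-04 with 10 counts in every library, -0.099 without SCC replicate 1, and from -0.22 (without RCC replicate 2) to 0.13 over the libraries left out. MT-ND4L was at 0.046 with the GC offset, 0.049 with GC offset and block, 0.12 with the length offset, and from -0.097 to 0.036 over the libraries left out. MT-TL2 was at 0.17 with the GC offset, 0.10 with GC offset and block, 0.22 with the length offset, and from -0.31 to 0.19 over the libraries left out. There MT-TF ran from -0.055 to 1.30 and MT-TV from -0.020 to 0.28. The GC offset planned from a genome sequence was not run, since transcripts were used. The lower counts of most tRNA genes limit what could be called among them.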

Other observations

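Sums of tRNA genes by strand are given as a description, since the grouping was chosen after the values were seen and only MT-TC was called. Of 10 tested plus-strand genes 3 had a log2 fold change above 0 and 7 below, and of 6 minus-strand genes 5 above and 1, MT-TQ, below. The 14 plus-strand tRNA genes summed to 62.2, 49.1 and 66.1 CPM in SCC replicates 1 to 3 and to 77.6, 78.0 and 76.3 in RCC. The 8 minus-strand genes summed to 132, 147 and 148 CPM in SCC against 104, 112 and 118 in RCC. The ratio of plus-strand to minus-strand tRNA counts was 0.42 ± 0.073 in SCC and 0.70 ± 0.050 in RCC (SD, n = 3). Among the plus-strand genes, the 3 next to the rRNA genes (MT-TF, MT-TV and MT-TL1) summed to 12.9 ± 2.24 CPM in SCC against 10.9 ± 1.24 in RCC, and the other 11 to 46.2 ± 8.84 and 66.4 ± 1.71. Most of the latter came from MT-TH and MT-TG, and most of the minus-strand counts from MT-TC, MT-TN, MT-TP and MT-TY.

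Nuclear copies of mitochondrial genes, which share sequence with their originals, passed the filter in 5 of 407 cases, and edgeR called 0. Of the 5, 2 were higher at an unadjusted p under 0.05, where 11.4% of all tested genes were. With the GC offset 1 was called higher, against 3.29% of all tested genes, and with that offset and the replicate block 2, against 3.99%. Without a filter 2 of 155 were called higher, against 2.65%. MTND2P28, the most abundant, was at 594 ± 37.8 CPM in SCC against 562 ± 24.7 in RCC (log2 fold change 0.08, adjusted p 0.529). Of 2 further copies, chosen after their values were seen, MTATP6P1 was at 187 ± 21.7 and 157 ± 10.2 CPM (0.25, 0.168), and MTCO1P12 at 49.9 ± 14.8 and 36.7 ± 2.16 (0.45, 0.180). Reads of these copies and of MT-ND2, MT-ATP6 and MT-CO1 may be exchanged in counting.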
